A study of Rattus norvegicus with 8 samples.

Results

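The nuclear mRNAs of oxidative phosphorylation were followed in plasma exosome RNA of exercised and sedentary rats. Members were all genes of the deposited table whose name starts with Nduf, Sdha, Sdhb, Sdhc, Sdhd, Uqcr, Cox4, Cox5, Cox6, Cox7, Cox8 or Atp5 and whose value was above 0 in at least 1 library. The names matched 123 rows, of which 33 were at 0 in every library and 90 were members, among 17901 genes of the table above 0 and 29541 in all. The members were 33 subunits of complex I, 4 of complex II, 7 of complex III, 15 of complex IV and 15 of ATP synthase, together with 8 assembly factors, the inhibitor Atp5if1 and 7 copies or pseudogenes. Subunits were counted by row, and Cox6b1, Atp5mc1 and Ndufa10l1 each had more than 1 row. Ndufa10l1, named as a gene like Ndufa10, was kept with complex I, and Cox7a2l with complex IV. Exercised rats were adult male Sprague Dawley rats that ran on a motorised treadmill on most days of a month, and sedentary rats were kept in the same room without running. Neither group received alpha-synuclein fibrils. Blood was drawn soon after the last session, exosomes were precipitated from cleared plasma, and total RNA libraries were made without fragmentation. There were 4 libraries in each group, with the labels a to d. Whether a library came from 1 rat or from a pool is not given, so p-values measure the spread between libraries.

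Oxidative phosphorylation takes place in the inner mitochondrial membrane. Complex I and complex II pass electrons from NADH and succinate to ubiquinone, complex III passes them to cytochrome c, and complex IV to oxygen, while ATP synthase uses the proton gradient to make ATP. Most subunits are encoded in the nucleus, translated in the cytosol and imported, and a few core subunits are encoded by mitochondrial DNA. Muscle, heart, liver and brown fat are rich in these complexes, and endurance training is known to raise them in skeletal muscle. Precipitated plasma vesicles carry RNA from many tissues and blood cells, so fewer vesicles of a source and less of an mRNA in each vesicle cannot be told apart here.

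TPM (reads divided by gene length and brought to the same total in each library) was the deposited unit. Because every value was a whole multiple of what 1 read was worth, reads were recovered from it. A library held 10020804 to 31357153 reads, of which the 10 most abundant RNAs took 99.3 to 99.7%. The reads left for all other genes numbered 64776 to 138860 per library. One read of a gene of 1000 bases was worth 0.151 TPM in Exercised a, against 0.0456 TPM in Sedentary c, so single reads gave a larger TPM in the shallowest library. The share of reads outside the 10 most abundant RNAs that fell on members was lowest in Sedentary c, at 0.195% (95% exact binomial interval 0.168 to 0.224%), and highest in Exercised b, at 0.320% (0.291 to 0.351%). Intervals cover counting error only.

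All members together had 2193 reads in the 8 libraries, with a median of 10 reads for a member. Reads were found in all 8 libraries for 11 members and in 1 library only for 20 members, and 48 members had 10 or fewer reads. Most members were therefore seen through a few reads. In 49 members over 50% of the summed TPM came from 1 library. Of the 26 members with at least 20 reads this held for 7, which were Atp5f1d, Atp5mg, Atp5pb and Cox7b in Exercised a, Uqcrbl1 in Exercised b, and Cox5b and Ndufaf3 in Sedentary b. The plot of reads by library shows these single bright cells.

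**Figure D1:**
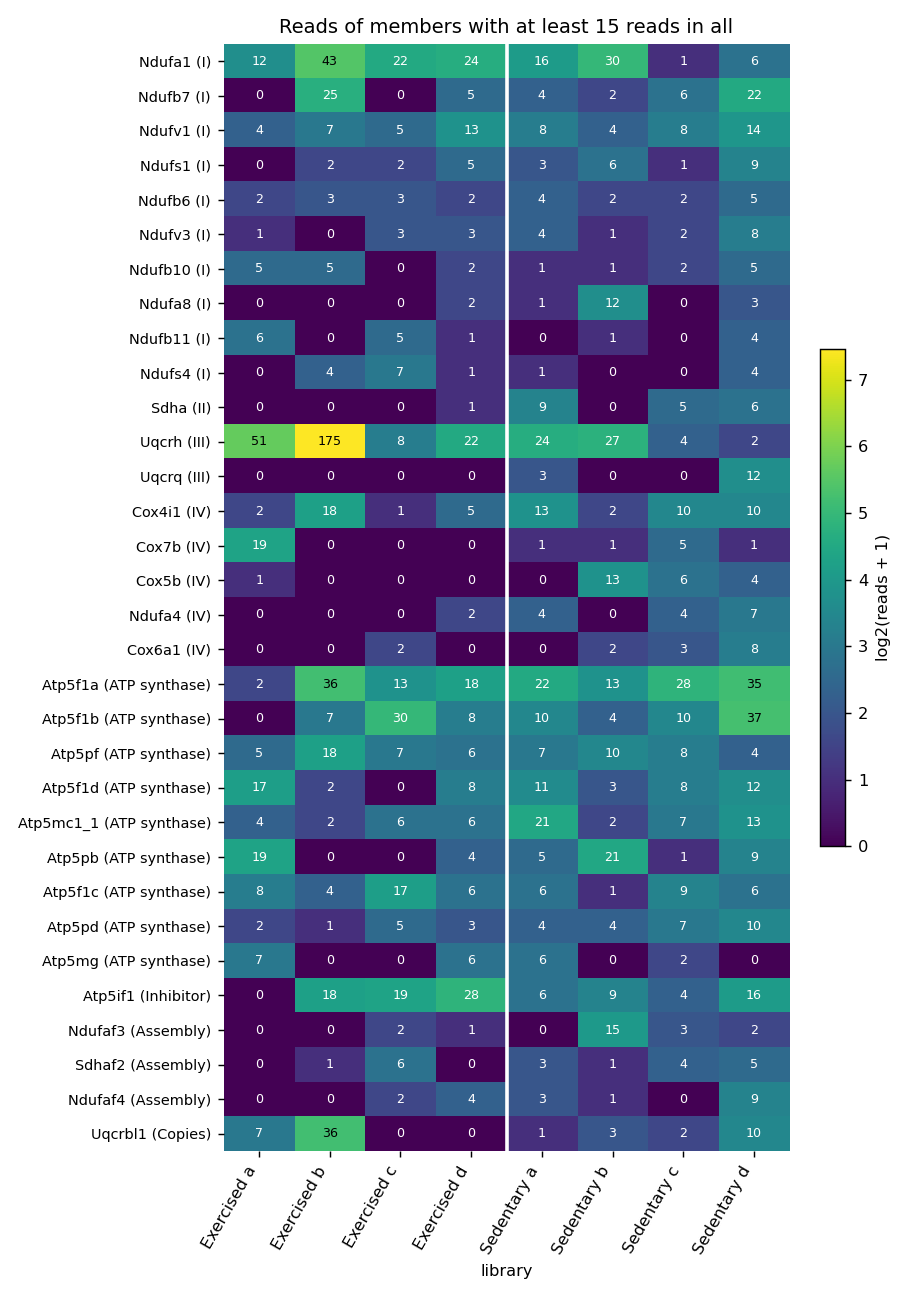
Reads of members with at least 15 reads in all, by library, with the respiratory complex in brackets. The 4 exercised libraries are left of the white line and the 4 sedentary ones right of it, the colour is log2(reads + 1) and the number in each cell is the reads. Uqcrh has 175 reads in Exercised b and Cox7b has 19 in Exercised a, against 0 in the other exercised libraries.

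Members above 0 numbered 22, 34, 36 and 56 in Exercised a to d, against 54, 40, 44 and 67 in Sedentary a to d. The groups overlapped. The genes of the whole table that were above 0 also differed between libraries. In Exercised a 24.4% of members and 29.8% of all genes were above 0, and in Sedentary d 74.4% of members and 59.6% of all genes were. In Exercised b 37.8% of members and 46.7% of all genes were above 0, and in Exercised c 40.0 and 55.3%. Differences in how many members a library shows were not separated from its depth.

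**Figure D2:**
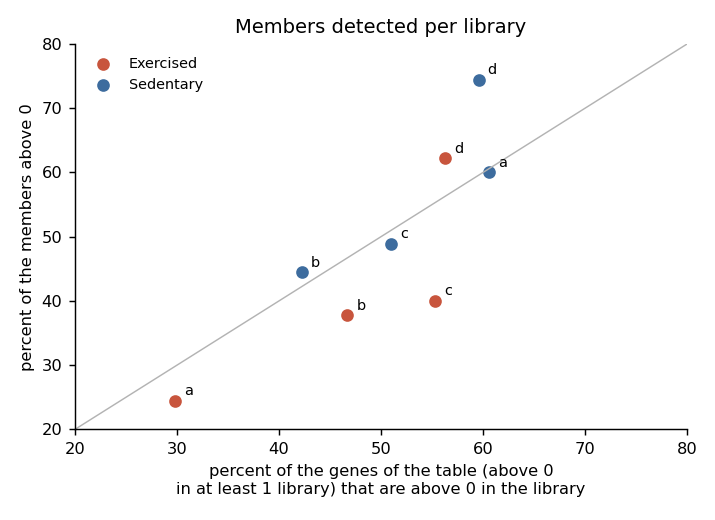
Percent of the 90 members above 0 in a library against the percent of the 17901 genes above 0, for the exercised (red) and sedentary (blue) libraries, labelled a to d. The grey line marks equal percentages, and Exercised a, b and c and Sedentary a and c lie under it.

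Sequences before the gene start are shown for 3 members the results return to, since regulators of mitochondrial genes in mammals are known to bind such sites. They come from the RefSeq promoter table of assembly GRCr8, which holds 250 bases before and 50 bases after each start and had an entry for 69 members. Each stretch is a searched core in capitals with its neighbouring bases, written along the gene's strand.
Uqcrh, ETS core on the opposite strand at position -83, chr5:134790939-134790985, minus strand: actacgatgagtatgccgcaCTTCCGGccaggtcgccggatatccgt
Ndufa1, ETS core on the opposite strand at position -171, chrX:121293700-121293746, minus strand: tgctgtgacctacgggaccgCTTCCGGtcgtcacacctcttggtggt
Atp5pf, ETS core at position -84, chr11:37375159-37375205, minus strand: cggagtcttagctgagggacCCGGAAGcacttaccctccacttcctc
Atp5pf, nuclear respiratory factor 1 core at position -169, chr11:37375243-37375290, minus strand: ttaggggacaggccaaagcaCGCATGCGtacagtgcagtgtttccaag
The ETS core, CCGGAAG on either strand, which GABPA can bind, was in 21 member promoters (30.4%), against 11.2% of 19005 promoters of coding genes. The core of nuclear respiratory factor 1, CGCATGCG, was in 8 member promoters (11.6%), against 2.24% of all. The YY1 core, AGATGGCG on either strand, was in 10 (14.5%), against 2.85% of all. Uqcrh and Ndufa1 held the ETS core and neither of the others, and Atp5pf held all of them.

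The summed TPM of the 74 structural subunits averaged 16.1 ± 7.25 in exercised libraries and 11.02 ± 5.64 in sedentary libraries (SD, n = 4 each). The exercised over sedentary ratio was 1.46, and the groups overlapped. With the 10 most abundant RNAs left out and TPM brought to the same total again (here called scaled again) the ratio was 1.0. Without the single gene Uqcrh, a set trimmed after its values were seen, the ratio was 1.09 in TPM and 0.757 with TPM scaled again. Mean TPM was higher in exercised libraries for 35 of the 90 members (38.9%), whereas it was for 57.0% of all 17901 genes. After scaling again it was higher for 28 members (31.1%), and for 42.3% of all genes. No sum was tested, since the set was chosen with results known.

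**Figure D3:**
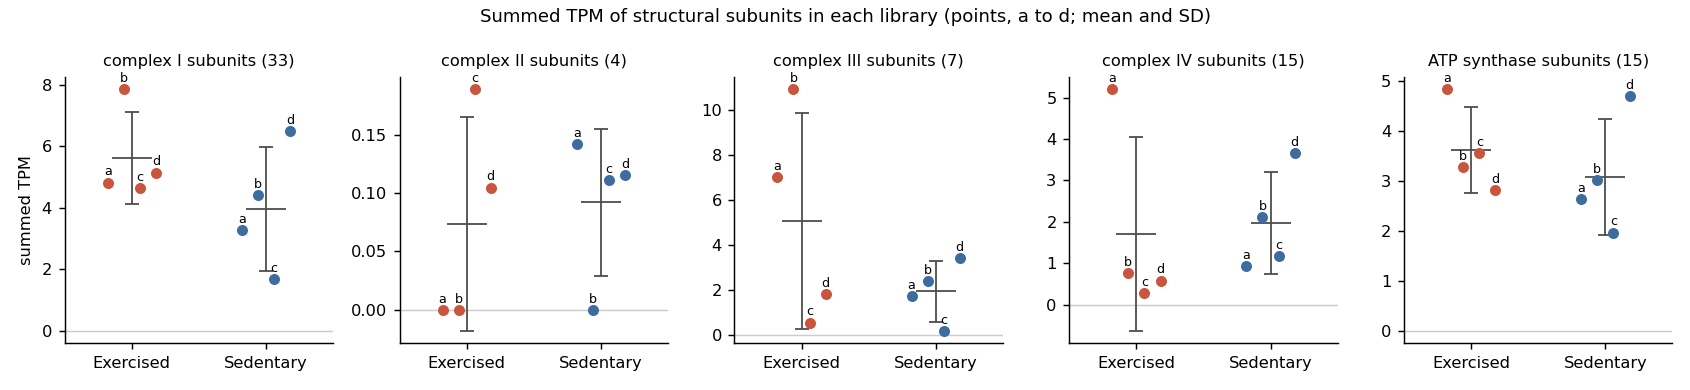
Summed TPM of the structural subunits of each complex in every library (points a to d), with the exercised group left and the sedentary group right, and the mean with its SD (lower whiskers can pass below 0). Complex III in Exercised a and b (7.0 and 10.9) and complex IV in Exercised a (5.21) stand above the other libraries of their group, and in all panels the groups overlap.

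Across many genes, the groups were compared with limma on log2(TPM + 1), in 508 genes whose mean over the libraries reached 1 TPM. Only 3 members passed this filter, Uqcrh, Atp5if1 and Ndufa1, and 0 of them were called in either direction at an unadjusted p under 0.05. Among all genes tested 8.46% were called higher and 2.17% lower. To reach more members, a wide fit took the 3069 genes whose mean reached 0.1 TPM, on log2(TPM + 0.1), which included 32 members. Of these, 0 were called higher, against 4.07% of all genes tested, and 0 lower, against 2.54%. Adjusted over all genes, 0 genes passed 0.05 in either limma fit, nor did any with voom on the reads, while before adjustment 43 genes were called higher and 11 lower in the first fit, and 125 and 78 in the wide fit. The smallest adjusted p of a member in the wide fit was 0.75 by limma with Benjamini-Hochberg adjustment. The median log2 fold change of the 32 members was -0.18, beside 0.28 over all 3069 genes, and 14 members had a positive and 18 a negative estimate, whereas 64.2% of all genes had a positive one. No member had every exercised library above every sedentary one, as 2.80% of the genes of the wide fit did, and no member had the reverse, as 1.27% did. With TPM scaled again, the median over all genes of the wide fit was -0.15, and that of its 32 members was -0.53.

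**Figure D4:**
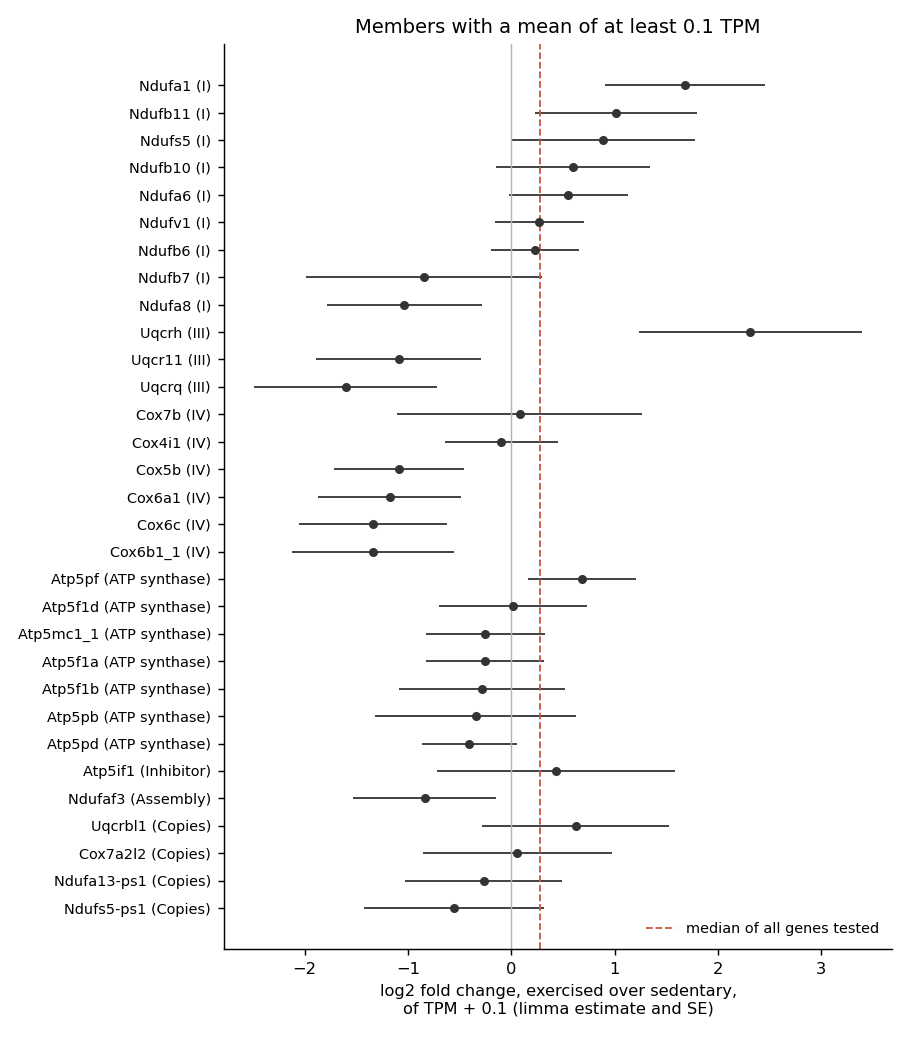
Log2 fold change, exercised over sedentary, with its SE from the wide limma fit for members whose mean reached 0.1 TPM, grouped by complex and sorted within it. The dashed line is the median of all 3069 genes (0.28), and the estimates run from -1.60 for Uqcrq to 2.31 for Uqcrh.

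Complex I, the entry point for NADH, had 653 reads in its 33 members. Its summed TPM was 4.82, 7.86, 4.65 and 5.14 in Exercised a to d, against 3.27, 4.42, 1.68 and 6.50 in Sedentary a to d. All exercised libraries but one lay below the highest sedentary library, and the groups overlapped. The mean was 5.62 ± 1.51 in exercised and 3.97 ± 2.03 in sedentary libraries (SD, n = 4 each), a ratio of 1.42 that became 0.991 when TPM was scaled again. The wide fit tested 10 subunits, with a median log2 fold change of 0.41 and 7 positive and 3 negative estimates.

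Ndufa1, a small membrane subunit needed for complex I assembly and encoded on the X chromosome, led the complex. It had 1.40, 2.28, 1.25 and 1.36 TPM in Exercised a to d, against 0.620, 1.78, 0.0352 and 0.260 TPM in Sedentary a to d. Exercised b stood above the other exercised libraries, and only Sedentary b fell within the exercised range. Its log2 fold change in the wide fit was 1.68 ± 0.77 (SE), with an adjusted p of 0.75 by limma. Without Sedentary b its unadjusted p by limma was 0.038 in the fit on log2(TPM + 1), with an adjusted p of 0.35. In the fits without another single library that still tested Ndufa1, the unadjusted p by limma was 0.14 to 0.29. Ndufa1 had 101 reads in exercised and 53 reads in sedentary libraries.

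Ndufv1, the core subunit that binds NADH, had 0.186 to 0.482 TPM in exercised and 0.156 to 0.398 TPM in sedentary libraries. Its groups overlapped. Ndufs1, a core iron-sulfur subunit, had 9 reads in exercised and 19 reads in sedentary libraries.

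Ndufb7, an accessory subunit, was uneven in both groups. It had 0, 3.20, 0 and 0.683 TPM in Exercised a to d, against 0.374, 0.287, 0.509 and 2.30 TPM in Sedentary a to d. One library in each group carried most of its 64 reads. Ndufb10 and Ndufb11, accessory subunits of the same membrane arm, had their highest values in Exercised a, at 1.10 and 1.05 TPM, where these were 5 and 6 reads. Their log2 fold changes were 0.59 ± 0.74 and 1.01 ± 0.78 (SE). Ndufs5, another accessory subunit, had 6 reads in Exercised c and none elsewhere, while its pseudogene Ndufs5-ps1 had 13 reads in 5 libraries. How reads were shared between genes and their near-identical copies is not known. The subunits Ndufa2, Ndufb11b, Ndufb2, Ndufb5 and Ndufc2 were at 0 in every library.

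Complex II, succinate dehydrogenase, was almost absent. Its 4 subunits, the flavoprotein Sdha, the iron-sulfur protein Sdhb and the membrane anchors Sdhc and Sdhd, had 8 reads in exercised and 24 reads in sedentary libraries. Summed TPM was 0, 0, 0.189 and 0.105 in Exercised a to d, against 0.142, 0, 0.111 and 0.116 in Sedentary a to d. Sdha had 1 read in exercised libraries, in Exercised d, against 9, 0, 5 and 6 reads in Sedentary a to d. Sdhb had 6 reads in exercised libraries, 5 of them in Exercised c, and 3 in sedentary libraries. Sdhc and Sdhd had 1 read each, in Exercised d and in Sedentary c. A group of 4 libraries without reads allows up to 3 reads, which is 7.63 RPM (reads per 1000000, counted without the 10 most abundant RNAs) in exercised and 7.19 RPM in sedentary libraries. This limit covers counting error only and leaves out the spread between libraries. No difference between groups in Sdhc or Sdhd was detectable at this depth.

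Complex III had the largest ratio of the complexes in TPM, and it rested on 1 gene. Its summed TPM was 7.0, 10.9, 0.533 and 1.79 in Exercised a to d, against 1.71, 2.36, 0.165 and 3.41 in Sedentary a to d. Exercised a and b were above all sedentary libraries and Exercised c was below 3 of them. The mean was 5.06 ± 4.80 in exercised and 1.91 ± 1.36 in sedentary libraries (SD, n = 4 each), a ratio of 2.64, or 1.62 without Exercised b. Uqcrh, the hinge protein that sits by cytochrome c1, had 313 of the 371 reads of the complex and 14.3% of the reads of all members. It had 7.0, 10.9, 0.533 and 1.46 TPM in Exercised a to d, against 1.09, 1.88, 0.165 and 0.102 TPM in Sedentary a to d. In reads these were 51, 175, 8 and 22 in exercised and 24, 27, 4 and 2 in sedentary libraries. Exercised a and b were the highest, and Exercised c and d fell among the sedentary values. The log2 fold change of Uqcrh was 1.38 ± 0.69 (SE) on log2(TPM + 1), with an unadjusted p of 0.073 and an adjusted p of 0.57 by limma. Without Exercised c its unadjusted p by limma was 0.016, with an adjusted p of 0.38. With any other single library left out, its unadjusted p by limma was 0.054 to 0.20.

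**Figure D5:**
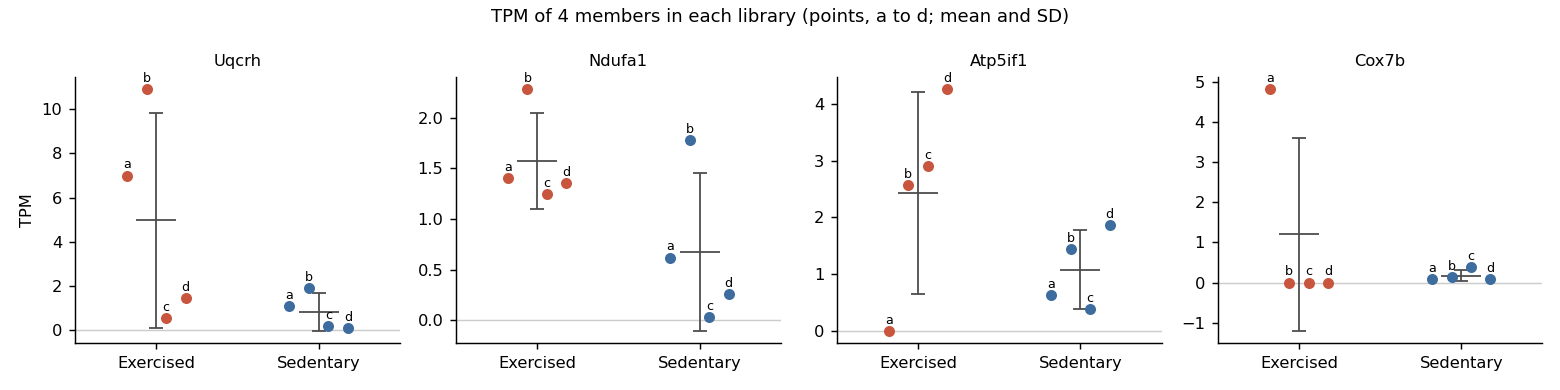
TPM of Uqcrh (complex III), Ndufa1 (complex I), Atp5if1 (inhibitor of ATP synthase) and Cox7b (complex IV) in the exercised (left) and sedentary (right) libraries, a to d, with mean and SD. Atp5if1 is at 0 in Exercised a and Cox7b is at 4.83 TPM there, and for Uqcrh, Ndufa1 and Atp5if1 at least 1 sedentary library lies within the exercised range.

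The other 6 subunits of complex III showed the opposite lean. Without Uqcrh, a trimming made after seeing the values, the summed TPM of the complex was 0, 0, 0 and 0.326 in Exercised a to d, against 0.622, 0.480, 0 and 3.31 in Sedentary a to d. These were 5 reads in exercised and 53 reads in sedentary libraries, 39 of them in Sedentary d. Uqcrq, a small subunit bound to cytochrome b, had no read in exercised libraries, against 3 and 12 reads in Sedentary a and d. In RPM its sedentary reads, mostly from 1 library, were 4.71-fold the limit of 3 reads for the exercised group. This is not a lower bound on the difference, since the sedentary reads have counting error and the limit leaves out the spread between libraries. Uqcr11 had 1 read in exercised and 11 reads in sedentary libraries, and Uqcr10 had none in exercised and 9 in sedentary libraries. The wide fit gave log2 fold changes of -1.60 ± 0.89 for Uqcrq and -1.09 ± 0.79 (SE) for Uqcr11, and neither was called. Uqcrc1, Uqcrc2 and Uqcrfs1, the core proteins and the Rieske protein, had 12, 7 and 3 reads in all. Uqcrb was at 0 throughout, while Uqcrbl1, named as a gene like it, had 43 reads in exercised and 16 in sedentary libraries, 36 of them in Exercised b.

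Complex IV, cytochrome c oxidase, had 60 reads in exercised and 140 reads in sedentary libraries. Members above 0 numbered 4, 4, 3 and 5 in Exercised a to d, against 7, 8, 7 and 12 of 15 in Sedentary a to d, and these numbers did not overlap. Of all measured genes, 29.8, 46.7, 55.3 and 56.3% were above 0 in Exercised a to d, against 60.6, 42.2, 50.9 and 59.6% in Sedentary a to d. These shares overlapped, and their part in the complex IV numbers was not tested. Reads were 23, 21, 5 and 11 in Exercised a to d, against 28, 25, 32 and 55 in Sedentary a to d. Summed TPM was 5.21, 0.755, 0.282 and 0.581 in Exercised a to d, against 0.937, 2.11, 1.17 and 3.66 in Sedentary a to d, and by this measure Exercised a was the highest of all. The ratio of mean TPM was 0.867, with group means of 1.71 ± 2.34 in exercised and 1.97 ± 1.23 in sedentary libraries (SD, n = 4 each), and it was 0.274 without Exercised a. It was 0.600 with TPM scaled again, 0.642 with median-ratio scaling and 0.517 in RPM.

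Cox7b, a small nuclear subunit, set Exercised a apart. It had 4.83 TPM in Exercised a, from 19 reads, and 0 in the other exercised libraries, against 0.0842, 0.129, 0.382 and 0.0944 TPM in Sedentary a to d. Without Cox7b, a trimming made after seeing the values, the complex had 0.380, 0.755, 0.282 and 0.581 TPM in Exercised a to d, against 0.853, 1.98, 0.788 and 3.56 TPM in Sedentary a to d. These sums did not overlap, with a ratio of 0.278. The whole sum overlapped through Exercised a, where Cox7b held 92.7% of the TPM of the complex, so the trimming itself removed the overlap. Among single genes of the wide fit 1.27% had every exercised library below every sedentary one, which is no yardstick for a trimmed sum. In RPM the trimmed sum was 61.8, 151, 48.5 and 128 in exercised and 261, 314, 277 and 386 in sedentary libraries, and the whole complex, which overlapped, was 355, 151, 48.5 and 128 in exercised and 270, 327, 328 and 393 in sedentary libraries. No test was run on them, as the set was trimmed with the values in view.

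Cox4i1, the widely expressed form of the largest nuclear subunit, did not follow this lean in TPM, with a ratio of means of 1.09. With TPM scaled again its ratio was 0.640, beside 0.600 for the whole complex. Cox4i1 had 0.135, 0.552, 0.0328 and 0.164 TPM in Exercised a to d, against 0.291, 0.0687, 0.203 and 0.251 TPM in Sedentary a to d. Its log2 fold change in the wide fit was -0.10 ± 0.55 (SE). Cox5b, a matrix-side subunit, had 1 read in exercised and 23 reads in sedentary libraries, 13 of them in Sedentary b. Cox6c and Cox6a1 had 1 and 2 reads in exercised and 8 and 13 reads in sedentary libraries. Cox6b1_1, one of the pair of rows named for Cox6b1, had none in exercised and 10 in sedentary libraries. The wide fit gave these 4 subunits log2 fold changes of -1.34 to -1.09, with unadjusted p of 0.093 to 0.12 and adjusted p of 0.77 to 0.79 by limma. Ndufa4, once counted with complex I and now placed in complex IV, had 2 reads in exercised and 15 in sedentary libraries, and Cox7a2l, which helps join complexes III and IV, had 1 and 11.

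Scaling again enlarged the TPM values, while the filter of 1 TPM and the 1 TPM added before the log stayed the same. In Exercised d, the 3 reads of complex II summed to 0.105 TPM, and to 7.90 TPM when scaled again. More of these low genes thereby came into the test. With TPM scaled again, 75 members passed a mean of 1 TPM among 11805 genes, and 5 members were called lower at an unadjusted p under 0.05 by limma, Cox5b, Cox6a1, Cox7a2l, Sdha and Uqcrq. That was 6.67% of the members tested, where 4.42% of all genes tested were called lower. None of the members was called higher, where 1.53% of all genes were. The smallest adjusted p among the members was 0.82 in that fit, and the median log2 fold change was -0.86 for members and -0.25 for all genes tested. The wide fit on TPM scaled again raised its filter and the added TPM in step with the values. With its 32 members, that fit called 0 lower, where 5.5% of its genes were, and 0 higher, where 1.91% were.

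The tissue forms of complex IV were read too seldom for a comparison. Cox6a2, the heart and muscle form, had 1 read in exercised and 5 reads in sedentary libraries, beside 2 and 13 for Cox6a1, the form of liver and other tissues. Cox7a1, the muscle form, had no read in exercised and 3 in sedentary libraries, and Cox7a2, its counterpart in liver, had 0 and 1. Cox4i2, the form of lung and of low oxygen, had 3 reads in exercised and 2 in sedentary libraries. Ndufa4l2 had 1 read, in Sedentary d. Cox8c, Cox7c and Cox7b2 were at 0 in every library.

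ATP synthase had 657 reads in 15 members, 5 of which were read in all 8 libraries. Summed TPM was 4.84, 3.29, 3.56 and 2.82 in Exercised a to d, against 2.65, 3.02, 1.97 and 4.71 in Sedentary a to d. The groups overlapped, with means of 3.63 ± 0.87 in exercised and 3.08 ± 1.17 in sedentary libraries (SD, n = 4 each). The ratio was 1.18 in TPM and turned to 0.787 with TPM scaled again, to 0.859 with median-ratio scaling and to 0.891 in RPM. The wide fit tested 7 subunits, with log2 fold changes of -0.41 to 0.68.

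Atp5f1a, the alpha subunit of the catalytic head, had 0.129, 1.06, 0.408 and 0.563 TPM in Exercised a to d, against 0.471, 0.427, 0.544 and 0.839 TPM in Sedentary a to d. Atp5f1b, the catalytic beta subunit, had 0, 0.269, 1.23 and 0.328 TPM in Exercised a to d, against 0.281, 0.172, 0.255 and 1.16 TPM in Sedentary a to d. For both, the groups overlapped and Exercised a was the lowest library. Atp5pf, a subunit of the peripheral stalk, had 0.839, 1.37, 0.571 and 0.488 TPM in Exercised a to d, against 0.390, 0.854, 0.404 and 0.249 TPM in Sedentary a to d. Its log2 fold change was 0.68 ± 0.52 (SE), and only Sedentary b exceeded the lowest exercised library. Atp5pb, the stalk subunit b, had 1.64, 0, 0 and 0.167 TPM in exercised and 0.143, 0.921, 0.0259 and 0.288 TPM in sedentary libraries. Atp5f1e, Atp5mk and Atp5mpl were at 0 throughout.

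Atp5if1, which blocks ATP hydrolysis by the enzyme when the proton gradient fails, was among the 6 members with at least 100 reads. It had 0, 2.57, 2.90 and 4.26 TPM in Exercised a to d, against 0.625, 1.44, 0.378 and 1.87 TPM in Sedentary a to d. Exercised b, c and d were above all sedentary libraries, and Exercised a was below all of them. The log2 fold change on log2(TPM + 1) was 0.56 ± 0.55 (SE), with an adjusted p of 0.69 by limma. Without Exercised a the log2 fold change was 1.07, with an unadjusted p of 0.028 and an adjusted p of 0.40 by limma. With any other single library left out, the unadjusted p by limma was 0.27 to 0.65. With TPM scaled again and all libraries the log2 fold change was -0.69, still with 1 TPM added before the log. The ratio of mean scaled TPM was 1.74, so the means kept their direction. In Exercised a, 3 reads would be 46.3 RPM, the highest such limit of the 8 libraries.

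The 8 assembly factors, which help build complexes I and II and are not part of them, had 25 reads in exercised and 57 reads in sedentary libraries. Their summed TPM was 0, 0.0791, 0.459 and 0.504 in Exercised a to d, against 0.198, 1.01, 0.516 and 0.430 in Sedentary a to d, a ratio of 0.485. The groups overlapped, and without Sedentary b and Exercised a the ratio was 0.911. Ndufaf3, an early complex I assembly factor, had 3 reads in exercised and 20 in sedentary libraries, 15 of them in Sedentary b. Ndufaf6 had 5 reads in exercised and 6 in sedentary libraries.

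Other genes of the pathway were taken from lists beside the members. The 13 mitochondrially encoded mRNAs summed to 22.6, 36.2, 29.9 and 11.3 TPM in Exercised a to d, against 7.10, 11.9, 9.66 and 11.2 TPM in Sedentary a to d. Only Sedentary b exceeded the lowest exercised library, and the ratio of means was 2.51. With TPM scaled again the ratio was 1.54, and Sedentary c in place of Sedentary b exceeded the lowest exercised library. Of the 11 tested in the wide fit, 1 was called higher and 0 lower, where 4.07 and 2.54% of all genes tested were. The median log2 fold change of the 11 was -0.27, beside 0.28 over all genes tested. The called gene was Mt-atp6, a proton channel subunit of ATP synthase, with an unadjusted p of 0.030 and an adjusted p of 0.67 by limma. It had 8.23, 8.28, 24.3 and 3.56 TPM in Exercised a to d, against 2.06, 4.19, 2.74 and 0.165 TPM in Sedentary a to d. Its mean was 11.1 TPM in exercised and 2.29 TPM in sedentary libraries, beside 25.0 and 9.97 TPM for the sum of all 13. Cycs, cytochrome c itself, had 10 reads in exercised and 112 reads in sedentary libraries, with 0.563, 0, 0.0391 and 0.0780 TPM in Exercised a to d, against 0.213, 0.696, 0.145 and 2.42 TPM in Sedentary a to d, and was not called. Of 3 carriers and porins tested, 1 was called lower, where 2.54% of all genes tested were. This was the ADP/ATP carrier Slc25a5, with no read in exercised libraries and an adjusted p of 0.75 by limma. None was called of 5 citric acid cycle genes, 3 other assembly factors and 2 regulators or uncoupling proteins tested.

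Markers of possible sources differed between libraries. Brackets give the markers above 0 of those in the deposited table. It held 6 of 10 listed for skeletal muscle, 6 of 7 for liver and 6 of 8 for erythroid cells. Heart muscle markers (6 of 6 above 0) summed to 13.2, 11.3, 0.441 and 7.02 TPM in Exercised a to d, against 2.04, 4.45, 0.958 and 7.46 TPM in Sedentary a to d. Skeletal muscle markers (5 of 6 above 0) ranged over 0.0888 to 4.11 TPM in exercised and 0.370 to 1.65 TPM in sedentary libraries. Most of this was Myh7, which heart also expresses, with 788 reads. Acta1, Ckm and Tnnt3 had 5 to 6 reads each and Tnni2 had none. Liver markers (6 of 6) ranged over 0.986 to 42.6 TPM in exercised and 11.1 to 45.5 TPM in sedentary libraries. Most of this sum was Ttr, with a mean of 13.5 TPM in exercised and 20.4 TPM in sedentary libraries. Alb averaged 0.709 TPM in exercised and 5.57 TPM in sedentary libraries, Apoa1 0.103 and 1.55 TPM, and Fabp1 0.185 and 1.88 TPM. These liver genes were called lower at unadjusted p of 0.0047, 0.0020 and 0.00085 by limma in the wide fit, with adjusted p of 0.39, 0.36 and 0.36. Of all genes tested there, 2.54% were called lower. Ttr and Serpina1 had negative estimates in that fit and were not called, with unadjusted p of 0.14 and 0.061 by limma. Summed platelet markers (7 of 7) did not overlap, with 6.44 to 12.9 TPM in exercised and 0.822 to 3.21 TPM in sedentary libraries. Among single genes of the wide fit, 2.80% had every exercised library above every sedentary one, and no such share was computed for sums. Pf4 made up most of the sum, with a mean of 6.80 TPM in exercised and 1.36 TPM in sedentary libraries. Treml1 had 0.0589 TPM in exercised and 0.206 TPM in sedentary libraries, and Itga2b 0.10 and 0.12 TPM. In the wide fit Pf4 and Tubb1 were called higher at unadjusted p of 0.0055 and 0.0499 by limma, with adjusted p of 0.40 and 0.75. Of all genes tested there, 4.07% were called higher. Ppbp, Treml1 and Itga2b were tested and not called. Erythroid markers (6 of 6) ranged over 25.1 to 126 TPM in exercised and 7.50 to 34.0 TPM in sedentary libraries. Neutrophil markers (9 of 9) ranged over 0 to 83.8 TPM in exercised and 0 to 6.59 TPM in sedentary libraries. Brown fat markers (1 of 2) were at most 0.0725 TPM. Cd63, Cd9 and Cd81 encode membrane proteins that the authors name among accepted exosome markers. Their mRNAs summed to 0.0554 to 1.03 TPM in exercised and 0.141 to 0.278 TPM in sedentary libraries. The part of these sources in the values of the members was not tested.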

How the data were processed

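Plasma exosome RNA was measured in 4 exercised and 4 sedentary rats' libraries. The authors deposited 1 table of TPM, made on rat build mRatBN7.2 according to the processing notes of the submitters. The aligner, the counter and the annotation were not given in the sources used here. Members and gene lists were chosen with earlier results of these data known. Members were picked by the start of their name and assigned to complexes. Whole reads were recovered from TPM (71860 of 71860 values above 0 whole at a tolerance of 1e-06) as the smallest whole numbers, so true reads could be a multiple. The 508 genes whose mean reached 1 TPM were fitted on log2(TPM + 1), with limma version 3.58.1 under R version 4.3.3 (no covariates, eBayes with trend, Benjamini-Hochberg adjustment), and a wide fit used 0.1 TPM for both. Both were also run on simulated data, and the outcome is not reported here. The sum of the members of a complex was described without a test. RPM is reads per 1000000 outside the 10 most abundant RNAs. Named genes were, per complex, up to 4 subunits with the highest mean TPM, up to 2 assembly factors, up to 5 per direction with the smallest p in either fit, the tissue forms of complex IV, Atp5if1, Ndufa4, Ndufa4l2 and Cox7a2l. Others named were chosen after their values were seen. Alternatives were other pseudocounts, filters and scalings, voom on reads, a replicate block and leaving out libraries, among them Sedentary b and Exercised a together. One member is counted in all sums and counts but not reported here by name, and is left out of the plots of single genes.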

Additional observations from a re-analysis of the deposited data

Results flagged for a closer look

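A library was flagged where its gap to the nearest other library of its group of 4 was, as a share of the group's range, above Dixon's 95% critical value, in the summed TPM of a complex or in a named gene with at least 20 reads. Chance flags about 1 in 20 groups, and 11 of 44 groups were flagged here, many of them groups whose other libraries were at or near 0. The summed TPM of complex I was 7.86 in Exercised b, where the other exercised libraries had 4.65 to 5.14. Complex IV summed to 5.21 TPM in Exercised a, where the others had 0.282 to 0.755. Cox7b was at 4.83 TPM in Exercised a, with the other exercised libraries at 0, and at 0.382 TPM in Sedentary c, with the other sedentary libraries at 0.0842 to 0.129. Atp5pb was at 1.64 TPM in Exercised a (others 0 to 0.167) and Cox5b at 0.0849 TPM there, from 1 read, with the others at 0. Ndufa1 reached 2.28 TPM in Exercised b, where the other exercised libraries had 1.25 to 1.40. Sdha was at 0.0188 TPM in Exercised d, from 1 read. Among sedentary libraries, Ndufaf3 was at 0.805 TPM in Sedentary b (others 0 to 0.0952), Atp5f1b at 1.16 TPM in Sedentary d (others 0.172 to 0.281) and Ndufb7 at 2.30 TPM in Sedentary d (others 0.287 to 0.509).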

How the results depend on the processing

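The count of members called higher, 0 of 3, became 1 of 90 with no filter (Ndufa1), where 208 of 17901 genes were called higher. It was 1 of 3 without Sedentary b and Exercised a (Atp5if1), where 44 of 491 genes were. With a replicate block it was 1 of 3 (Uqcrh), where 34 of 508 genes were. With each library left out it was 0 to 1, where 29 to 55 genes were called higher among 486 to 530 tested. The count called lower, 0 of 3, became 5 of 75 with TPM scaled again, where 522 of 11805 genes were called lower. It stayed at 0 in the other alternatives, each library left out included. In the wide fit the count higher was 2 of 32 with a replicate block (Uqcrh and Ndufa1), where 102 of 3069 genes were called higher. With each library left out, 28 to 33 members were tested among 2932 to 3206 genes. The count higher was then 0 to 2, where 86 to 179 genes were called higher. The count lower was 0 to 2, where 45 to 106 genes were called lower. The letters a to d did not pair the libraries, since the deviations of same-letter libraries correlated at -0.26 to -0.0049 and every exercised library correlated best with another letter. Atp5if1 turned from a log2 fold change of 0.56 to -0.69 with TPM scaled again, while its ratio of mean scaled TPM was 1.74. With each library left out the ratios ran from 1.19 to 1.80 for complex I, 0.379 to 1.06 for complex II, 1.62 to 3.57 for complex III, 0.274 to 1.21 for complex IV, 1.04 to 1.43 for ATP synthase, 0.334 to 0.683 for the assembly factors and 1.24 to 1.88 for all structural subunits. The log2 fold change ranged over 0.27 to 1.07 for Atp5if1, 0.51 to 0.99 for Ndufa1 and 0.90 to 1.89 for Uqcrh. Across the other alternatives the ratios moved by less than the spread between libraries, which was wide. That spread was 1.13 for complex II, 3.13 for complex III, 1.31 for complex IV and 0.57 for the assembly factors. In these sets it was larger than the ratio itself, so no fall could have exceeded it. The comparison therefore cannot show that these ratios are stable. The cause of these shifts was not tested. With a median of 10 reads for a member over 8 libraries, depth limits every comparison of a single subunit.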
